A study of Mus musculus with 8 samples.

Results

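The 10 genes described here serve sperm motility and the fusion of sperm and egg. They are the pore subunits of the CatSper calcium channel (Catsper1, Catsper2, Catsper3 and Catsper4), its auxiliary subunit Catsperb, the sperm potassium channel Kcnu1, the fusion protein Izumo1, the fibrous sheath anchors Akap3 and Akap4, and the mitochondrial capsule protein Smcp. They were chosen by name, with earlier results of these data known. All were found under their symbols in the deposited values, and they are 10 of 23235 gene symbols. RNA was sequenced from spermatocytes of C57BL/6 mice, sorted by flow cytometry from testes. The 4 groups were WT and Cnot4-null cells in leptotene and zygotene (LZ) and in pachytene and diplotene (PD), with 2 libraries in each group; values are given for replicates 1 and 2 in that order, with null for Cnot4-null. In the Cnot4-null mice, floxed alleles (Cnot4 fl/fl) were recombined by Stra8-Cre, which is active in germ cells entering differentiation and meiosis, with the loss of exon 2; other testis cells keep the gene. CNOT4 is a ubiquitin ligase subunit of the CCR4-NOT complex, which shortens the poly(A) tails of mRNAs. Values are FPKM, which scales fragments to transcript length and library size, and genes above 1 FPKM in at least 1 library were tested, 15899 in all. Each of the 10 genes passed this filter, and each was above 1 FPKM in at least 1 WT library.

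Spermatozoa swim with a flagellum whose beat is controlled by calcium, cAMP and pH. CatSper is a calcium channel of the principal piece, with a pore formed by CATSPER1 to CATSPER4 and a large extracellular canopy to which CATSPERB belongs; KCNU1 (SLO3) is the potassium channel that hyperpolarizes sperm during capacitation. AKAP3 and AKAP4 anchor protein kinase A in the fibrous sheath around the axoneme, SMCP lies in the capsule of the midpiece mitochondria, and IZUMO1 on the sperm head binds JUNO on the egg before the membranes fuse. The proteins act in the mature sperm cell, and the mRNAs of many such genes accumulate late in spermatogenesis, in part in pachytene spermatocytes and in part in haploid spermatids.

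Cnot4 itself was at 36.0 and 34.9 FPKM (WT LZ), 43.2 and 34.6 (null LZ), 76.6 and 73.1 (WT PD) and 65.9 and 53.5 (null PD). The values of the PD genotypes did not overlap, but the change of -0.33 on the log2 scale was not called (limma, adjusted p = 0.192). A value per gene adds up all exons, so it does not show whether exon 2 was lost, and the genotypes rest on the labels. The deposited values carry no read counts, so no counting error could be computed from them.

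Marker genes were read first as a check of the labelled stages. Of 7 PD spermatocyte markers, 7 were called higher in WT PD than in WT LZ, and their summed FPKM was 178 and 286 (WT LZ), 174 and 50.4 (null LZ), 11789.9 and 10909.8 (WT PD) and 5241 and 1815 (null PD). Ldhc, the testis lactate dehydrogenase, was the most abundant of them in every library. Between the genotypes at PD, 0 of the 7 were called higher and 2 lower (Pou5f2 and Adam2), beside 41.6% and 11.5% of all genes. By limma 4 were at an unadjusted p under 0.05, and the median was -1.50. For all 7 the PD values of the genotypes did not overlap, with Cnot4-null lower, as for 23.1% of all genes tested. The 6 LZ markers summed to 1232 and 1519 (WT LZ), 2835 and 1546 (null LZ), 997 and 1036 (WT PD) and 827 and 493 (null PD), with the synaptonemal complex gene Sycp3 the most abundant. Between the genotypes at PD these 6 went both ways. Stra8 (4.44), Dmc1 (2.42) and Prdm9 (1.31) were called higher in Cnot4-null, beside 41.6% of all genes. Sycp3 (-1.17) and Hormad1 (-1.39) were called lower, beside 11.5% of all genes, and Meiob was not called. Stra8, which marks cells entering meiosis, was at 8.70 and 6.47 FPKM (WT PD) and 228 and 149 (null PD), and Sycp3 at 785 and 799 and at 473 and 259.6.

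The 2 Cnot4-null PD libraries stood apart from the rest in round spermatid, Leydig and peritubular myoid markers, and from WT PD in spermatogonial markers. The comparison of the genotypes at PD called 41.6% of all genes higher and 11.5% lower. The 7 round spermatid markers summed to 1835 and 1521 FPKM (WT LZ), 4043 and 713 (null LZ), 417 and 260.2 (WT PD) and 15839.9 and 7187 (null PD); Prm1 or Prm2, which encode protamines, was the most abundant in each library, and 7 of 7 were called higher in Cnot4-null than in WT at PD. The 6 Leydig markers summed to 17.2 and 9.89 (WT LZ), 10.8 and 19.0 (null LZ), 116 and 7.07 (WT PD) and 10073 and 22274 (null PD), with Insl3 the most abundant and 6 of 6 called higher. Of the 6, 3 (Cyp17a1, Cyp11a1 and Hsd3b6) were listed at 0 in WT PD replicate 2. The 4 peritubular myoid markers summed to 61.6 and 279 in Cnot4-null PD, where Acta2 was the most abundant, and, with Tagln the most abundant, to between 1.73 and 4.93 in the other 6 libraries, and 4 of 4 were called higher at PD. The 6 spermatogonial markers, led by Uchl1, summed to 543 and 533 (WT LZ), 343 and 486 (null LZ), 17.7 and 11.9 (WT PD) and 276 and 349.9 (null PD), and 6 of 6 were called higher.

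Of the 6 Sertoli genes, 5 were in the files. They summed to 65.2 and 58.2 FPKM (WT LZ), 6.47 and 9.76 (null LZ), 8.71 and 16.4 (WT PD) and 98.0 and 199 (null PD), with Clu the most abundant. Clu alone was at 94.6 and 196 in null PD, so these sums are nearly those of 1 gene. Amh, which marks immature Sertoli cells, was listed at 0 in 7 of the 8 libraries. Of 4 tested, 2 (Wt1 and Clu) were called higher in Cnot4-null at PD, beside 41.6% of all genes, and Sox9 and Cldn11 were not called. Macrophage markers (5 genes) summed to 24.8 and 0.915 (WT LZ), 5.93 and 1.65 (null LZ), 1.70 and 1.46 (WT PD) and 17.2 and 84.9 (null PD). Lyz2 was the most abundant of them in the latter 2 libraries, and 3 of 5 were called higher at PD, beside 41.6% of all genes. The haemoglobin genes Hba-a1 and Hbb-b1 were listed at 0 in all 8 libraries, and the other erythrocyte gene, Alas2, was at 0.936 or below. The part of other cells in the differences at PD described below was not tested, and in bulk RNA a change in the number of cells of a type and a change in RNA per cell cannot be told apart.

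**Figure D1:**
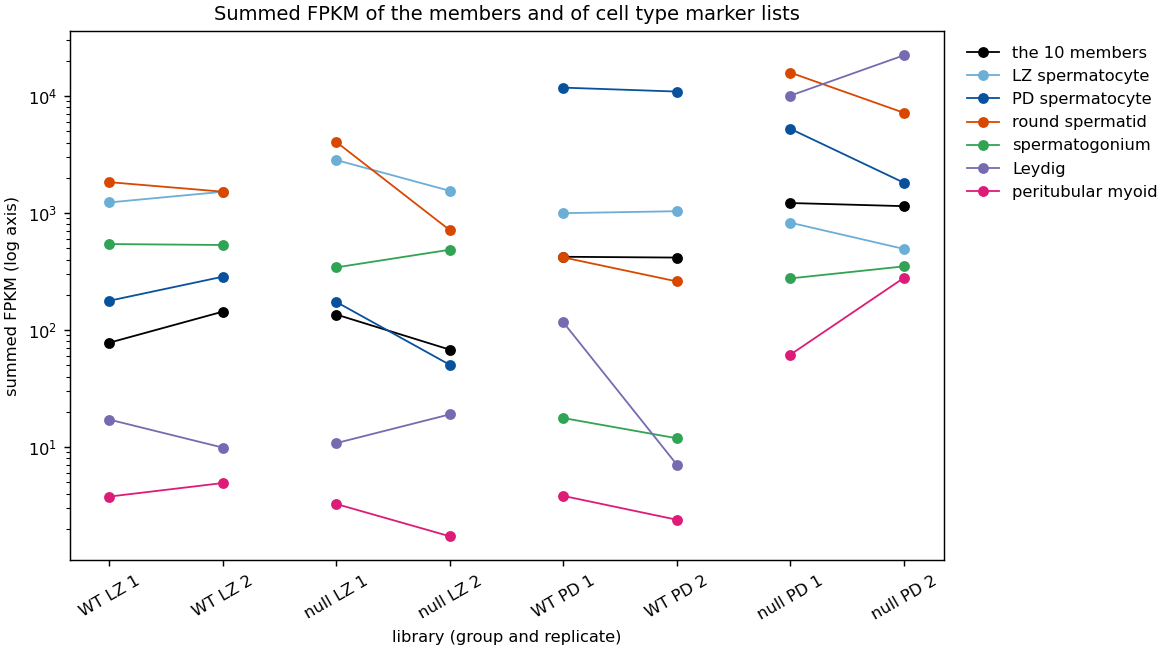
Summed FPKM (log axis) of the 10 sperm motility and fusion genes and of 6 marker lists in each library (points; lines join the replicates of a group; null, Cnot4-null). Round spermatid, Leydig and peritubular myoid markers were highest in the Cnot4-null PD libraries, and PD spermatocyte markers were highest in WT PD.

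The members Catsper2 and Catsperb were abundant in WT pachytene and diplotene cells. Catsper2 lies at chr2:121218367-121240317 in mm9 (minus strand) and Catsperb at chr12:102642883-102864219 (plus strand). Their promoters are shown because these 2 genes moved together and apart from the rest; each run holds 300 bases, from 250 before to 50 after the transcript start in RefSeq (GRCm38.p6), matched exactly to the mm9 assembly for its position. Capitals mark TGACG (part of a cAMP response element) or AACGG or AACTG (core of a MYB site) on either strand.
Catsper2 (chr2:121239479-121239778, minus strand): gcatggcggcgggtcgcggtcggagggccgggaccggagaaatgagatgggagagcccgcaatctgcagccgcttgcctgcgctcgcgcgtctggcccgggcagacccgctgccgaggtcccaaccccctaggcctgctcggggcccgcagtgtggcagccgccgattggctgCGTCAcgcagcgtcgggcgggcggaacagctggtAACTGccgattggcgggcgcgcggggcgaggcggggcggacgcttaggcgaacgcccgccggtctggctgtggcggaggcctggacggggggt
Catsperb (chr12:102642633-102642932, plus strand): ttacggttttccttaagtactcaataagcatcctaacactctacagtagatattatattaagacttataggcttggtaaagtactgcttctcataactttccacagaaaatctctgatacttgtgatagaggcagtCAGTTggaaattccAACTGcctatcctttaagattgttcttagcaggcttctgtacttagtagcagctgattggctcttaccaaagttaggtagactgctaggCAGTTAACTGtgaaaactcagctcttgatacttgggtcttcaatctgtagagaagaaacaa
The Catsper2 promoter was GC-rich (74.7% G and C) with 1 TGACG and 1 MYB core. Its window lies inside the gene span given above, whose upstream end is at 121240317, so RefSeq and that annotation differ in the start. The Catsperb promoter was AT-rich (38.0% G and C) with 4 MYB cores, a pair of them joined end to end 11 bases before the start. Of 32851 promoters of the same length, 20.8% held TGACG and 55.1% a MYB core, so these matches are descriptions and not sites. A further planned motif, GTTGCC (part of an RFX site), was in 12.5% of all promoters and in 0 of the 8 member genes that had a promoter entry. Catsper1 and Kcnu1 had none.

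Catsper2 was at 8.30 and 9.72 FPKM (WT LZ), 10.3 and 11.2 (null LZ), 269 and 248 (WT PD) and 189 and 78.5 (null PD). Both PD groups were far above both LZ groups, and both Cnot4-null PD libraries were below both WT PD libraries, replicate 2 more so. An exon of Catsper2 overlaps Pdia3 on the opposite strand, and Pdia3 stayed between 139.7 and 209 FPKM in all 8 libraries. Whether the reads kept their strand was not determined, so reads of the overlap could not be assigned to 1 gene with certainty. Catsperb was at 0.797 and 1.30 FPKM (WT LZ), 0 and 0.0419 (null LZ), 81.6 and 95.4 (WT PD) and 23.5 and 15.2 (null PD). It was nearly silent before pachytene in both genotypes, and the PD values of the genotypes did not overlap. Levels in WT PD thus followed the order Catsper2 (mean 259 ± 15.4, SD, n = 2), Catsperb (88.5 ± 9.75) and Smcp (52.9 ± 7.60), and the 7 other members were under 7 FPKM in both WT PD libraries.

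The other 3 pore subunit genes were low in WT at both stages. Catsper1 (chr19:5335741-5344153, plus strand) was at 0.586 and 0.951 FPKM (WT LZ), 0 and 0 (null LZ), 1.45 and 0.695 (WT PD) and 10.4 and 6.82 (null PD). Catsper3 (chr13:55885929-55910359, plus strand) was at 2.98 and 8.46 (WT LZ), 0.334 and 1.04 (null LZ), 6.95 and 3.63 (WT PD) and 27.9 and 16.1 (null PD). Catsper4 (chr4:133767885-133783298, minus strand) was at 0.239 and 1.64 (WT LZ), 0.255 and 0.113 (null LZ), 2.77 and 2.16 (WT PD) and 31.2 and 27.1 (null PD). The Cnot4-null PD libraries were above the other 6 for all 3 genes, and the WT LZ and WT PD values of Catsper1 and Catsper3 overlapped. Pore subunits of 1 channel were thus at unlike levels: in WT PD the mean of Catsper2 was 259 FPKM and those of Catsper1, Catsper3 and Catsper4 were 1.07 ± 0.533, 5.29 ± 2.34 and 2.47 ± 0.436 (SD, n = 2).

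Kcnu1 (chr8:26960095-27048405, plus strand), the potassium channel gene, was at 0.327 and 0.265 FPKM (WT LZ), 0.250 and 0.398 (null LZ), 2.04 and 2.19 (WT PD) and 6.34 and 0.625 (null PD). The Cnot4-null PD libraries fell on either side of WT PD and differed 10.1-fold from each other. Its PD groups overlapped, while over all genes tested 58.2% had no overlap with Cnot4-null higher and 23.1% with Cnot4-null lower.

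The fusion gene and the genes of the fibrous sheath and mitochondrial capsule shared a pattern, with higher values in Cnot4-null PD than in the other 3 groups. Izumo1 lies at chr7:52877181-52884193 (plus strand), Akap3 at chr6:126803116-126824325 (plus strand), Akap4 at chrX:6644645-6655735 (plus strand), on a chromosome that is transcriptionally silenced in pachytene spermatocytes, and Smcp at chr3:92387814-92392896 (minus strand). Their promoters, with the same length and source as above, are shown for 4 of the 7 members higher in Cnot4-null PD. Of the other 3, Catsper3 and Catsper4 had entries with 0 matches to any motif named here, and Catsper1 had no entry. Capitals mark TGACG and the MYB cores and, chosen after the sequences had been read, TGATGTCA, which resembles the palindromic cAMP response element TGACGTCA; this too was searched after reading.
Izumo1 (chr7:52876931-52877230, plus strand): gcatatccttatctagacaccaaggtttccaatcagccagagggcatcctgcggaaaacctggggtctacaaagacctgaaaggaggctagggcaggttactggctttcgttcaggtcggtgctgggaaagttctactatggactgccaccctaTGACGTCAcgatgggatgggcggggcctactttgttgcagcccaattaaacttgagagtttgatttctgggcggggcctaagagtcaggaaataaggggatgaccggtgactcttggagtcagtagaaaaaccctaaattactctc
Akap3 (chr6:126802866-126803165, plus strand): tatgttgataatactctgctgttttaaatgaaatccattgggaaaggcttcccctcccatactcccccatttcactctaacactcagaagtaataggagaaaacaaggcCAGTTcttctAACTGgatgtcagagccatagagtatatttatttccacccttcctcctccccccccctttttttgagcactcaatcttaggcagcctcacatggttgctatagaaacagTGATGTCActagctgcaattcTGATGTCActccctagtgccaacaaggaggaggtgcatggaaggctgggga
Akap4 (chrX:6644391-6644690, plus strand): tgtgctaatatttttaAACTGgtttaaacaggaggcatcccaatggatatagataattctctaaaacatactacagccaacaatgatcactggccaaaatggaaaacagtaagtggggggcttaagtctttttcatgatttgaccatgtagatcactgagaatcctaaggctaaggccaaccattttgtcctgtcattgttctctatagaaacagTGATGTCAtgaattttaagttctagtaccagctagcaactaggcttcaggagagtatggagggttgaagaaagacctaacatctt
Smcp (chr3:92392946-92393245, minus strand): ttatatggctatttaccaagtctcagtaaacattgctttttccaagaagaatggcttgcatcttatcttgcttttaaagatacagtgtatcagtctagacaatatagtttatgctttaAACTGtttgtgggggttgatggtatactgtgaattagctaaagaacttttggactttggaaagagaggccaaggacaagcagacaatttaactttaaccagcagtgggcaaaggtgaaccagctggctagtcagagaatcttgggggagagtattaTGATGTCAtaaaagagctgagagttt
Izumo1 held TGACGTCA from 96 to 89 bases before the start, which contains TGACG on both strands and is present in 1.79% of all promoters. Akap3 held TGATGTCA 2 times, Akap4 and Smcp 1 time each, while 3.62% of all promoters held it. The Akap3 matches lay from 22 to 15 bases before the start and across the start. The Akap4 match lay from 35 to 28 bases before the start, and the Smcp match from 24 to 31 bases after it. A run of 20 bases was shared by Akap3 and Akap4, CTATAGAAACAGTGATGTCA, and by 0 other promoters of the 32851. This run was picked as the longest shared by the promoters of any 2 members, so it is a description. Akap4 had a second entry, from 6645086 to 6645385 on the same chromosome, without TGATGTCA. TGACG was in 2 of the 8 member genes with an entry (Catsper2 and Izumo1), and a MYB core in 5. No binding was measured.

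Izumo1 was at 1.45 and 1.60 FPKM (WT LZ), 1.55 and 3.08 (null LZ), 5.27 and 1.37 (WT PD) and 38.3 and 17.2 (null PD). The WT PD values lay on either side of the WT LZ values, and both Cnot4-null PD libraries were above all others. An exon of Izumo1 overlaps Rasip1 on the same strand, and Rasip1 was at 2.74 and 4.19 FPKM (WT LZ), 5.81 and 6.14 (null LZ), 0.348 and 0.279 (WT PD) and 3.47 and 3.46 (null PD), so reads of the overlap could not be assigned to 1 gene with certainty.

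Akap3 was at 0.475 and 2.49 FPKM (WT LZ), 3.95 and 0.499 (null LZ), 1.48 and 1.23 (WT PD) and 32.9 and 20.8 (null PD). Akap4 was at 4.65 and 7.67 (WT LZ), 14.4 and 4.06 (null LZ), 4.21 and 3.54 (WT PD) and 87.0 and 41.5 (null PD). For both kinase anchors the replicates of Cnot4-null LZ spread widely, and only the Cnot4-null PD libraries stood clear of the rest. Smcp was at 58.1 and 109.6 FPKM (WT LZ), 105 and 47.5 (null LZ), 47.5 and 58.2 (WT PD) and 771 and 921 (null PD). It was the most abundant member in 6 of the 8 libraries, and Catsper2 in the 2 WT PD libraries. Smcp was also the only member that was higher in replicate 2 than in replicate 1 of Cnot4-null PD.

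**Figure D2:**
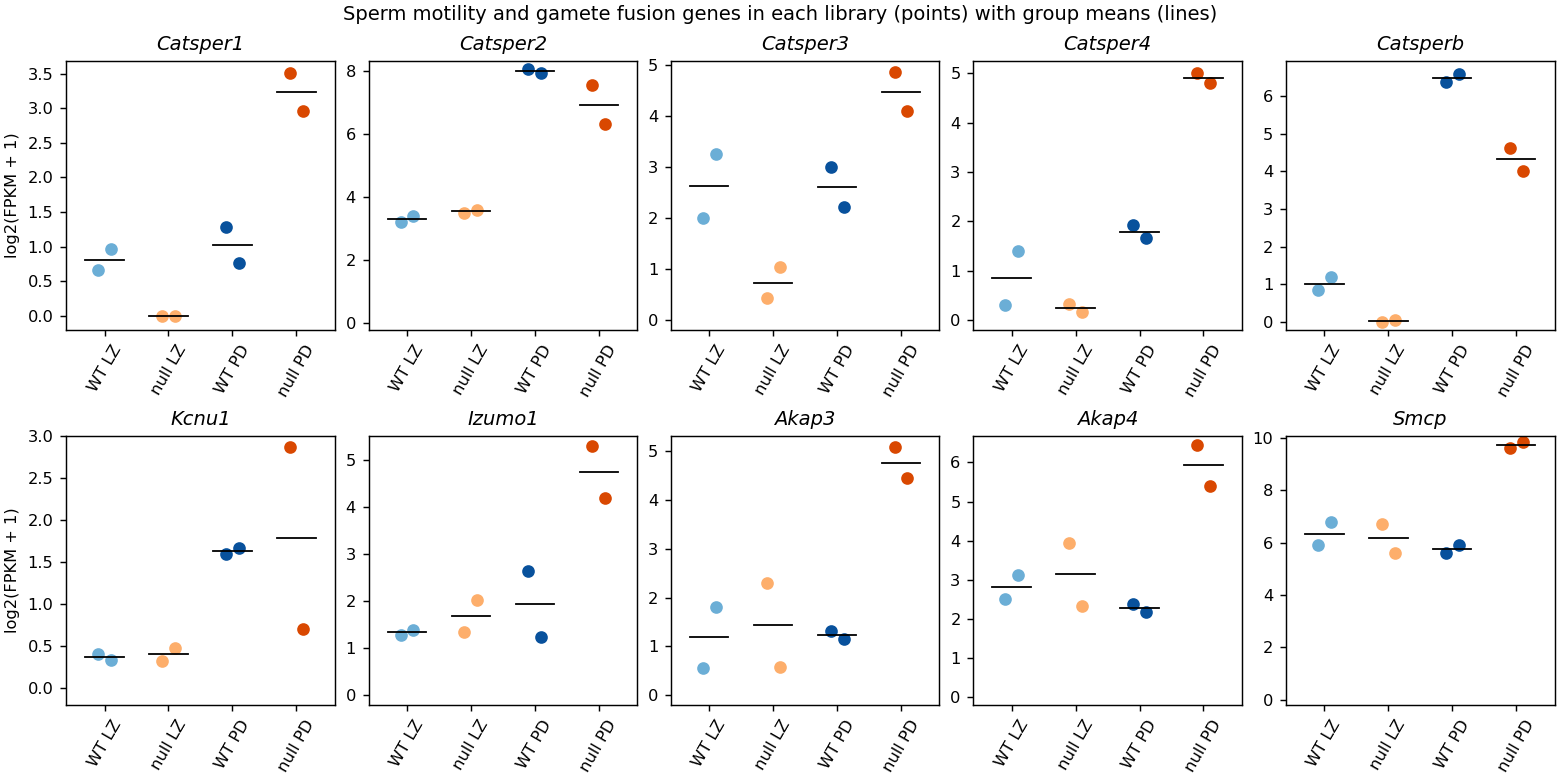
log2(FPKM + 1) of each member in every library (points) and group mean (lines), with 2 libraries per group and a vertical scale of its own in each panel (null, Cnot4-null). Catsper2 and Catsperb were highest in WT PD, 7 members were highest in Cnot4-null PD, and Kcnu1 was split between the Cnot4-null PD libraries.

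The first comparison asked which of these genes change during normal meiotic prophase. From WT LZ to WT PD, 2 of the 10 members rose and 0 fell, beside 21.6% of all genes called higher and 36.2% called lower. Of the markers, 3 of 7 round spermatid, 5 of 6 spermatogonial and 4 of 4 tested Sertoli genes were called lower in the same comparison. Catsper2 rose 28.7-fold in mean FPKM, by 4.70 (SE 0.38) on the log2(FPKM + 1) scale, which understates the change of low genes (limma, adjusted p = 6.00e-05). Catsperb rose 84.4-fold, by 5.46 (SE 0.28, adjusted p = 1.93e-05). The median of all genes tested moved by -0.32 in this comparison, and relative to it the changes were 5.02 and 5.77. The other 8 members had changes between -0.59 (Smcp) and 1.26 (Kcnu1) with adjusted p from 0.0714 to 1. At an unadjusted p under 0.05 there were 3, with Catsper4 the added one, also higher, beside 9811 of the 15899 genes. The median over the members was 0.41. With 1 library left out, the change of Smcp ran from -1.04 to -0.14. When libraries were scaled to the same median or by quantiles, Catsper4 and Kcnu1 were called higher as well, for 4 members, and the values of Catsper3 and Akap4 turned positive. Kcnu1 was also called, at the same change of 1.26, when the WT libraries were fitted alone (limma, adjusted p = 0.00271) and when either Cnot4-null PD library was left out. Catsper4 was called without WT LZ replicate 2, at 1.48, whereas its change was 0.39 without WT LZ replicate 1. Over all settings the adjusted p ran from 0.000622 to 0.295 for Kcnu1 and from 0.00776 to 0.340 for Catsper4. Over all genes the split of 3436 higher and 5754 lower became 4120 and 4815 by quantiles and 5170 and 4274 with the same median.

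Cnot4-null cells were compared between the same stages. From LZ to PD 9 members rose and 0 fell, beside 27.8% of all genes called higher and 18.2% called lower. The called changes ran from 2.79 (Akap4) to 4.67 (Catsper4), and the median over the members was 3.35, beside 0.19 over all genes tested. Catsperb rose by 4.29 (SE 0.28, adjusted p = 2.75e-04) and Catsper2 by 3.39 (SE 0.38, adjusted p = 7.07e-04). Smcp rose 11.1-fold in mean FPKM, by 3.56 (SE 0.42, adjusted p = 9.11e-04), and Akap3 12.1-fold, by 3.32 (SE 0.63, adjusted p = 0.00509). Kcnu1, with its split values, had a change of 1.39 (SE 0.62, adjusted p = 0.105), which became 2.47 (adjusted p = 0.00101) without Cnot4-null PD replicate 2 and 0.30 without replicate 1. Akap4 missed the threshold without Cnot4-null PD replicate 1 (2.27, adjusted p = 0.0583). Over all settings the adjusted p ran from 0.00101 to 0.402 for Kcnu1 and from 0.00378 to 0.0583 for Akap4, and at an unadjusted p under 0.05 there were 9 members, all higher, beside 8602 of the 15899 genes. Without Cnot4-null LZ replicates 1 and 2 in turn, the changes were 4.18 and 2.46 for Akap3 and 3.6 and 1.99 for Akap4, and without Cnot4-null PD replicates 1 and 2 they were 2.76 and 4.02 for Catsper2. All 7 round spermatid and all 6 Leydig markers were called higher in the same comparison. Over all genes the split of 4423 higher and 2893 lower became 2974 and 4986 by quantiles and 3332 and 5180 with the same median. Fewer genes were called in both directions without either Cnot4-null LZ library.

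At LZ, 0 of the 10 members were called between the genotypes by limma, beside 0.0692% of all genes called higher and 0.0252% called lower. At an unadjusted p under 0.05 there were 3, beside 1013 of the 15899 genes, and all 3 were lower in Cnot4-null. Their changes were -1.90 (Catsper3), -0.99 (Catsperb) and -0.81 (Catsper1), with adjusted p between 0.598 and 0.745. Over the other settings these ran from -2.87 to -1.27 (Catsper3), -3.23 to -0.82 (Catsperb) and -3.09 to -0.67 (Catsper1). The LZ values of the genotypes did not overlap for these 3 genes, nor for Catsper2, which was higher in Cnot4-null; over all genes tested this held for 18.2% higher and 18.0% lower. The median over the members was -0.07, beside 0 over all genes tested.

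Between the genotypes at PD, 7 of the 10 members were higher in Cnot4-null and 2 were lower, beside 41.6% of all genes called higher and 11.5% called lower. Smcp rose 16.0-fold in mean FPKM, by 3.98 (SE 0.42, adjusted p = 4.81e-04), Akap4 16.6-fold, by 3.65 (SE 0.57, adjusted p = 0.00211), and Akap3 19.8-fold, by 3.53 (SE 0.63, adjusted p = 0.00369). Catsper4 rose 11.8-fold, by 3.12 (SE 0.38, adjusted p = 7.96e-04), Izumo1 8.36-fold, by 2.79 (SE 0.55, adjusted p = 0.00562), and Catsper1 8.02-fold, by 2.21 (SE 0.32, adjusted p = 0.00154). Catsper3 rose 4.16-fold, by 1.87 (SE 0.51, adjusted p = 0.0191). Each of these 7 genes was higher in 2 of 2 Cnot4-null libraries than in either WT library, as were 58.2% of all genes tested.

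Catsperb fell by 2.16 (SE 0.28, adjusted p = 0.00106) to 0.219 of its WT mean, and Catsper2 fell by 1.08 (SE 0.38, adjusted p = 0.0453) to 0.518 of its WT mean. The PD spermatocyte markers were lower in the same libraries, with the median of -1.50 given above. The call of Catsper2 was lost under 11 of 16 other settings (adjusted p from 0.00136 to 0.176), among them each library left out in turn except Cnot4-null PD replicate 1. Without that replicate its change was -1.71 and without Cnot4-null PD replicate 2 it was -0.45 (adjusted p = 0.00136 and 0.0647). Without the other 6 libraries it was between -1.14 and -1.02, and under settings other than a library left out it ran from -2.51 to -0.74. Catsper3 lost its call under 6 of 16 (adjusted p from 0.0175 to 0.349), among them each Cnot4-null PD library left out (1.5, adjusted p = 0.114, without replicate 1, and 2.25, adjusted p = 0.0514, without replicate 2) and WT PD replicate 2 (1.49, adjusted p = 0.131). The other 3 were no filter (an unaltered 1.87, adjusted p = 0.0703, with more genes tested), quantile normalization (1.07, adjusted p = 0.117) and the same median (0.59, adjusted p = 0.349). Kcnu1 had a change of 0.15 (SE 0.62, adjusted p = 0.850) and was called in opposite directions without replicate 1 (-0.94, adjusted p = 0.00378) and without replicate 2 (1.24, adjusted p = 0.00452) of Cnot4-null PD. Catsper1 lost its call with quantile normalization alone (0.94, adjusted p = 0.0613). Catsper4, Catsperb, Izumo1, Akap3, Akap4 and Smcp were called under all 16, though their changes moved. That of Izumo1 was 3.50 without WT PD replicate 1 and 2.09 without WT PD replicate 2. Under settings other than a library left out, the lowest values were 1.59 (Izumo1), 1.91 (Catsper4), 2.37 (Akap4), 2.43 (Akap3), 2.55 (Smcp) and -3.56 (Catsperb).

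Between the genotypes at PD, 6619 genes were called higher and 1830 lower, with fewer in both directions when either WT PD library was left out. The median of all genes moved by 0.66. Relative to that median the changes were 3.31 for Smcp, 2.99 for Akap4, 2.87 for Akap3, 2.46 for Catsper4, 2.13 for Izumo1, 1.55 for Catsper1, 1.21 for Catsper3, -1.74 for Catsper2 and -2.83 for Catsperb. With quantile normalization the split over all genes was 2835 higher and 4078 lower, and with each library scaled to the same median it was 3724 and 6376. The directions of the 9 called members were the same under both scalings, with 5 higher and 1 lower called by the first and 6 higher and 2 lower by the second. The median over the members was 2.50. These scalings moved the median of all genes from 0.66 to -0.10 and -0.21.

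**Figure D3:**
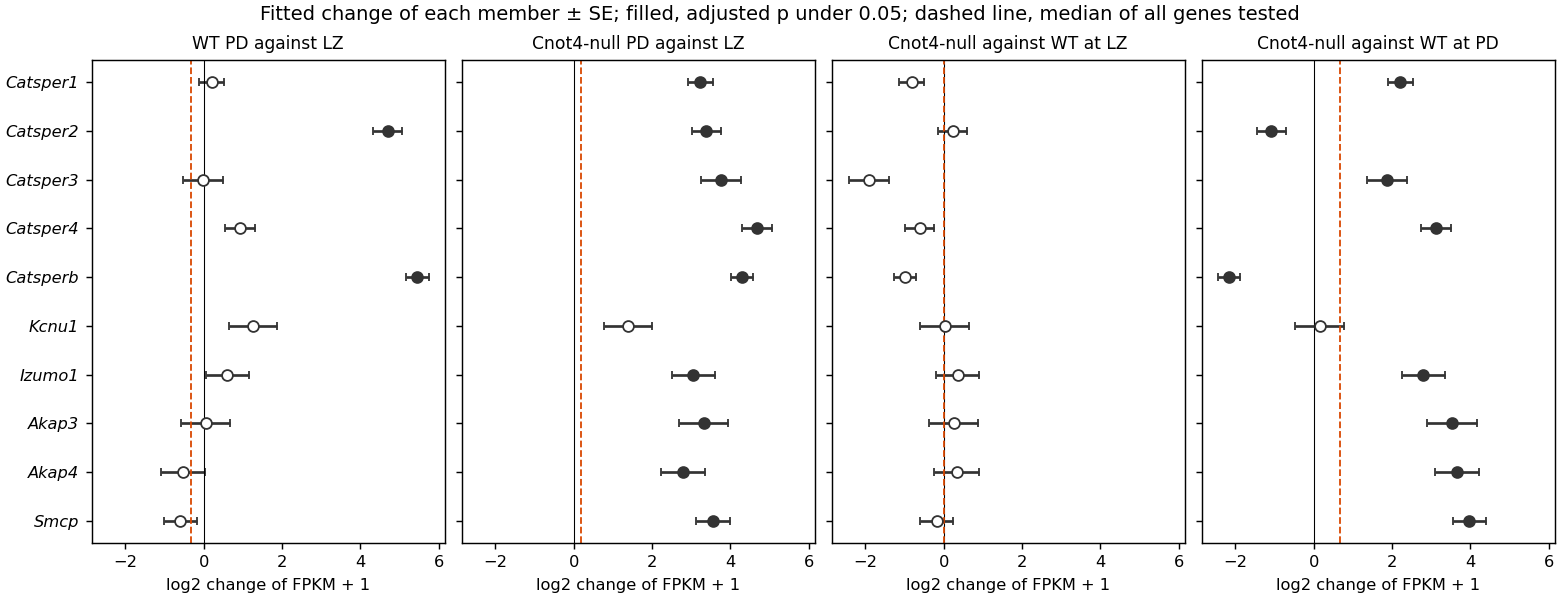
Fitted log2 change of FPKM + 1 of each member ± SE in 4 comparisons, with filled points for an adjusted p under 0.05 and a dashed line at the median of all genes tested. At PD, Smcp was 3.98 higher and Catsperb 2.16 lower in Cnot4-null, and 0 members were called at LZ.

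**Figure D4:**
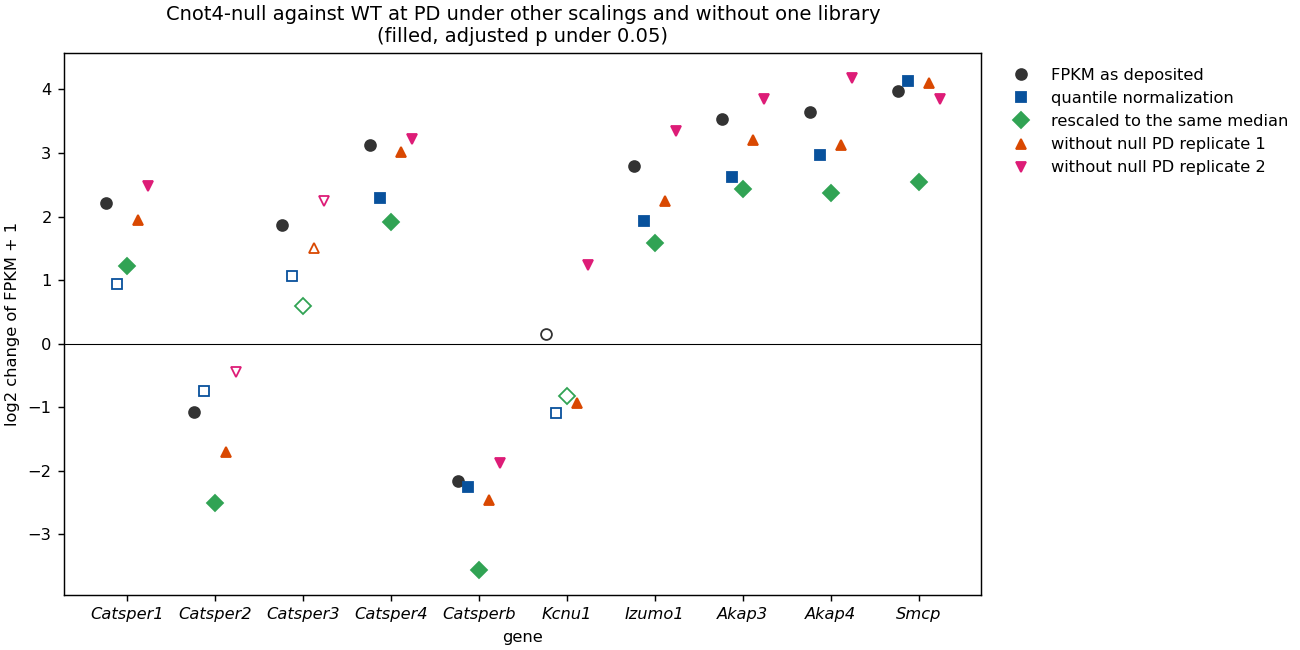
Log2 change of FPKM + 1 of each member between Cnot4-null and WT at PD with FPKM as deposited, under 2 other scalings, and without each Cnot4-null PD library (filled, adjusted p under 0.05). Kcnu1 changed sign between the settings, from -1.09 to 1.24, and the other 9 genes kept the direction they had with FPKM as deposited.

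Whether the genotype effect differed between the stages was tested as an interaction. It was called positive for 6 members, beside 26.0% of all genes, and negative for 0, beside 3.97%. In the fit of log2(FPKM + 1), Smcp had the largest value among the members, 4.15 (SE 0.60, adjusted p = 0.00389). It was followed by Catsper3 (3.77, SE 0.72, adjusted p = 0.0102), Catsper4 (3.74, SE 0.54, adjusted p = 0.00389), Akap4 (3.32, SE 0.80, adjusted p = 0.0219), Akap3 (3.27, SE 0.89, adjusted p = 0.0320) and Catsper1 (3.02, SE 0.45, adjusted p = 0.00420). Under settings other than a library left out, the highest values were 6.03 for Catsper1, 5.0 for Catsper4, 4.93 for Catsper3 and 4.36 for Smcp. Izumo1 was near the threshold at 2.44 (SE 0.78, adjusted p = 0.0521). Catsper2 (-1.31, SE 0.53, adjusted p = 0.101) and Catsperb (-1.17, SE 0.40, adjusted p = 0.0632) were not called, although both were lower in Cnot4-null at PD, and for Catsperb the sign of the interaction turned with a pseudocount of 0.1 (1.02). At an unadjusted p under 0.05 there were 9 members, all but Kcnu1, beside 6995 of the 15899 genes. The median over the members was 3.15, beside 0.64 over all genes tested. The calls of Akap3 and Akap4 were lost under 10 and 8 of 15 other settings (adjusted p from 0.0250 to 0.117 and from 0.0178 to 0.0931). For Akap3 these included WT LZ replicate 2 (2.64), Cnot4-null LZ replicate 2 (2.41), WT PD replicates 1 and 2 (3.34 and 3.19) and Cnot4-null PD replicates 1 and 2 (2.95 and 3.59) left out. For Akap4 they included WT LZ replicates 1 and 2 (3.63 and 3.01), Cnot4-null LZ replicate 2 (2.51), WT PD replicates 1 and 2 (3.42 and 3.22) and Cnot4-null PD replicate 1 (2.79) left out. Where the call remained, Akap3 was at 3.89 without WT LZ replicate 1 and, without Cnot4-null LZ replicate 1, Akap3 was at 4.13 and Akap4 at 4.12. Catsper3 was at 4.40 and 3.15 without WT LZ replicates 1 and 2. The call was also lost by Catsper3 without WT PD replicate 2 (3.38, adjusted p = 0.0578). Izumo1 was called without WT PD replicate 1 (3.14, adjusted p = 0.0495). Without Cnot4-null PD replicate 1, Catsper2 (-1.94), Catsperb (-1.46) and Kcnu1 (-0.97) were called negative, and more of all genes were as well. Kcnu1 was called positive without Cnot4-null PD replicate 2 (1.21). With 1 library left out, Catsper2 ran from -1.94 to -0.68 and Catsperb from -1.46 to -0.87. Over all settings the adjusted p ran from 0.00874 to 0.0578 for Catsper3, 0.0495 to 0.272 for Izumo1, 0.00316 to 0.245 for Catsper2, 0.00431 to 0.230 for Catsperb and 0.0101 to 1 for Kcnu1. Over all genes the split of 4139 positive and 631 negative became 1548 and 1966 by quantiles and 2177 and 5129 with the same median. Both counts were lower without either WT PD library and higher without Cnot4-null PD replicate 1.

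The companions of these genes were read from 5 lists, of which 41 of 47 genes were in the files and all 41 passed the filter. In WT, 20 of the 41 were called higher at PD than at LZ and 1 lower, beside 21.6% and 36.2% of all genes. In Cnot4-null, 38 of the 41 were called higher at PD than at LZ and 1 lower, beside 27.8% and 18.2% of all genes. Between the genotypes at PD, 16 of the 41 were called higher and 5 lower, near the 41.6% and 11.5% of all genes. The comparison between genotypes shares PD libraries with both comparisons of stages. At LZ 0 of the 41 were called between the genotypes (limma), and from 0 to 2 genes of each list had an unadjusted p under 0.05. The levels of these genes at PD are read beside the median of all genes, 0.66, which other scalings moved below 0.

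The CatSper auxiliary and trafficking genes (8 of 10 in the files) included 7 of 8 that rose from LZ to PD in WT, beside 21.6% of all genes. At PD 1 of the 8 was higher and 3 were lower in Cnot4-null, beside 41.6% and 11.5% of all genes, with a median change of -0.63 (-1.29 relative to all genes). Catsperz, a small component needed for the channel's arrangement in rows, was the most abundant at 2118 and 1921 FPKM (WT PD) and 962 and 285 (null PD), a change of -1.94 (SE 0.53, adjusted p = 0.0196). Slco6c1, an organic anion transporter found with the channel, was at 257 and 271 (WT PD) and 120.4 and 43.7 (null PD) (-1.84, SE 0.50, adjusted p = 0.0183). Efcab9, which encodes the calcium sensor that partners CATSPERZ, went the other way, from 30.5 and 20.4 to 208 and 124 (2.64, SE 0.40, adjusted p = 0.00204). So the partners Catsperz and Efcab9 changed in opposite directions, as did pore subunits among the members.

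Of the genes for a potassium channel partner and for proton, sodium, calcium and cAMP handling (7 of 8 in the files), 2 were higher and 1 lower in Cnot4-null at PD, beside 41.6% and 11.5% of all genes, with a median of 0.00 (-0.66 relative to all genes). Lrrc52, the auxiliary subunit of KCNU1, was at 0.275 and 0.880 FPKM (WT PD) and 9.64 and 3.44 (null PD) (2.15, SE 0.48, adjusted p = 0.00884). Atp1a4, the sperm sodium pump subunit, was at 2.11 and 2.43 and then 31.9 and 11.2 (2.62, SE 0.66, adjusted p = 0.0145). Slc9c1, the sperm sodium-proton exchanger, was the most abundant of the list in WT PD at 90.7 and 87.3 and was at 35.6 and 16.3 in Cnot4-null PD (-1.84, SE 0.38, adjusted p = 0.00676).

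Of the fibrous sheath genes (8 of 9 in the files), 4 were higher and 0 lower in Cnot4-null at PD, beside 41.6% and 11.5% of all genes (limma; 4 had an unadjusted p under 0.05), with a median of 1.33 (0.67 relative to all genes). Gapdhs, the sperm glycolytic enzyme bound to the sheath, was at 8.17 and 6.32 FPKM (WT PD) and 168 and 62.5 (null PD) (3.66, SE 0.66, adjusted p = 0.00387). Ropn1, which binds AKAP3, was at 20.2 and 23.1 and then 294 and 144 (3.19, SE 0.73, adjusted p = 0.00986), whereas its relative Ropn1l was already at 2705 and 2745 (WT PD) and 2204 and 987 (null PD), a change of -0.88 that was not called (adjusted p = 0.158).

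Among outer dense fibre and mitochondrial sheath genes (9 of 9 in the files), 3 were higher and 1 lower in Cnot4-null at PD, beside 41.6% and 11.5% of all genes, with a median of -0.14 (-0.81 relative to all genes). Odf1, a main protein of the dense fibres, was at 7.82 and 12.9 FPKM (WT PD) and 184 and 364 (null PD) (4.55, SE 0.47, adjusted p = 4.27e-04), and like Smcp it was higher in replicate 2. Odf3 was at 7.47 and 6.19 and then 70.7 and 53.8 (3.01, SE 0.74, adjusted p = 0.0129). Gk2, a glycerol kinase of the mitochondrial sheath, was at 600.4 and 600.02 (WT PD) and 242 and 75.0 (null PD) (-2.15, SE 0.56, adjusted p = 0.0165). Gpx4, the peroxidase of the mitochondrial capsule and most abundant of the list in WT PD at 1537 and 1475, was at 1216 and 608 in Cnot4-null PD, with a change of -0.81 (adjusted p = 0.0677).

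Of the sperm-egg fusion genes (9 of 11 in the files), 6 were higher and 0 lower, beside 41.6% and 11.5% of all genes (limma; 6 had an unadjusted p under 0.05), with a median of 1.87 (1.21 relative to all genes). Llcfc1 and Spaca6, both needed for fusion, were at 25.5 and 21.6 and at 1.43 and 0.784 FPKM in WT PD; in Cnot4-null PD they were at 308 and 174 (3.24, SE 0.74, adjusted p = 0.00971) and at 24.4 and 13.0 (3.18, SE 0.48, adjusted p = 0.00187). Izumo4 had the highest mean of the list in WT PD, with 307 and 283, and was at 165 and 62.3 in Cnot4-null PD, a change of -1.53 that was not called (adjusted p = 0.0879).

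**Figure D5:**
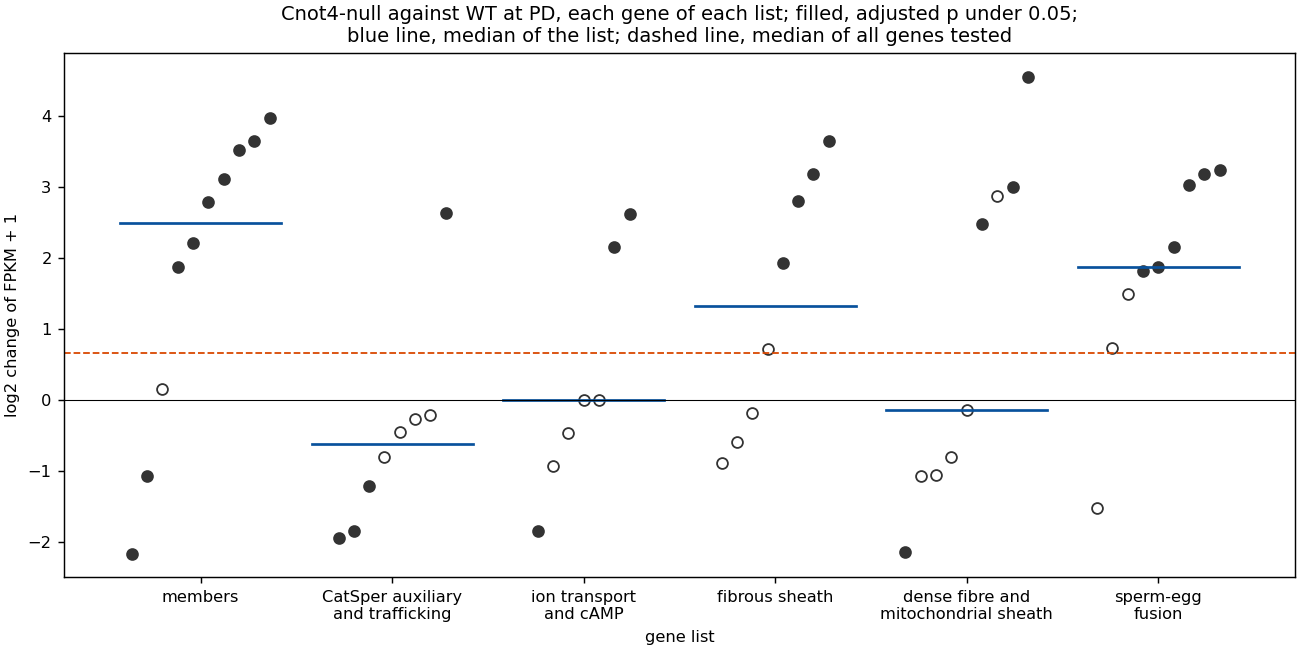
Log2 change of FPKM + 1 between Cnot4-null and WT at PD for each gene of the members and of 5 companion lists (filled, adjusted p under 0.05; blue line, median of the list; dashed line, median of all genes tested at 0.66). Over all lists 16 of 41 genes were called higher and 5 lower, beside 41.6% and 11.5% of all genes.

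Among 11864 other genes with at least 5 FPKM in some library, 5 had the profiles over the 8 libraries most like the mean standardized profile of the 10 members. They were Ccdc81 (Pearson r = 0.998), 4932411G14Rik (0.996), 2010001M06Rik (0.995), the transcription factor gene Sox5 (0.993) and AI836003 (0.992). Ccdc81 was at 2.57 and 1.60 FPKM (WT PD) and 21.3 and 9.88 (null PD), and Sox5 at 1.06 and 0.904 and at 8.66 and 4.68. The 8 libraries fall into 4 groups, so such values mainly reflect the group means. The members' own r with this mean profile ran from 0.630 (Catsperb) to 0.982 (Catsper4), and Catsper2 was at 0.716.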

How the data were processed

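RNA-seq of sorted WT and Cnot4-null spermatocytes was analysed, with 2 libraries in each of 4 groups taken from the labels. The authors trimmed reads, mapped unique reads to mm9 with TopHat2 2.1.1 and computed the deposited FPKM per gene symbol with Cufflinks 2.2.1. Their methods describe Smart-Seq2, whereas the labels describe TruSeq libraries of total RNA, and which was used was not determined. The paper calls the duplicates biological replicates.

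Genes above 1 FPKM in at least 1 library were kept. A linear model with trended variance (limma 3.58.1, R 4.3.3) was fitted to log2(FPKM + 1) of all 8 libraries, with Benjamini-Hochberg adjustment in each of 5 contrasts; genes with an adjusted p under 0.05 are called. An exact test of 2 against 2 cannot go below p = 0.333. The members and lists were chosen with earlier results of these data known. From each companion list, up to 2 called genes per direction at PD, those that changed most, and the gene highest in WT PD are named. Older symbols were matched through RefSeq synonyms, and gene positions come from GENCODE on the assembly of mm9. Alternatives were no filter, a mean of at least 5 FPKM, a pseudocount of 0.1, quantile normalization, the same median, no trend, only the libraries compared, a replicate block, and each library left out; in the last, a lone library is assumed to vary like the other groups.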

Additional observations from a re-analysis of the deposited data

Results flagged for a closer look

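The genotype effect differed between LZ and PD for 6 members by the interaction test of limma, beside 26.0% of all genes called positive and 3.97% negative. The differences of the 2 effects were 3.02 for Catsper1, 3.77 for Catsper3, 3.74 for Catsper4, 3.27 for Akap3, 3.32 for Akap4 and 4.15 for Smcp on the log2 scale, as the effect at PD less that at LZ. For Catsper3 the effect was -1.90 at LZ and 1.87 at PD, and for Catsper1, Catsper4 and Smcp it was also below 0 at LZ, at -0.81, -0.61 and -0.18. No effect of these 4 genes at LZ was called (adjusted p from 0.598 to 1). With 1 library left out, that of Catsper4 ran from -1.16 to -0.07 and that of Smcp from -0.74 to 0.39. Akap3 and Akap4 lost the interaction call under 10 and 8 of 15 other settings and Catsper3 under 1. With 1 library left out, the values ran from 2.41 to 4.13 for Akap3, 2.51 to 4.12 for Akap4 and 3.15 to 4.40 for Catsper3. The median over all genes tested was 0.64. All 7 round spermatid, all 6 Leydig and all 4 peritubular myoid markers had called interactions in the same direction, and their part in these results was not tested.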

How the results depend on the processing

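Of 780 values of single members under other settings, 699 kept their direction and side of the threshold, 38 lost the call, 16 gained it and 27 changed sign.

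In WT, 4 members were called higher with quantile normalization and 4 with the same median. At PD, 1 member rather than 2 was called lower without a filter, without a trend, with the compared libraries alone and with quantile normalization. The interaction was called lower for 2 members with the same median. The numbers of all genes called at PD and in the interaction also depended on the library left out. In both directions they were lowest without either WT PD library and highest without Cnot4-null PD replicate 1. The counts of members that follow are read beside these shifts. With 1 replicate left out, 1 to 3 members were called lower at PD, and 3 to 6 higher and 0 to 3 lower in the interaction.

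Changes of sign, called only for Kcnu1 at PD and in the interaction without Cnot4-null PD replicate 1, were as follows. In WT, Catsper3 went to 0.55 with quantiles and 0.75 with the same median, Akap4 to 0.13 and 0.22, and Smcp to 0.28 with the same median. Kcnu1 at PD went to -0.03 with a pseudocount of 0.1, -1.09 with quantiles and -0.82 with the same median, and its interaction to -0.11, -1.14 and -0.86; the interaction of Catsperb went to 1.02 with the pseudocount. With 1 replicate left out, WT changes ran from -0.05 to 0.48 for Catsper1, -0.64 to 0.61 for Catsper3, -0.09 to 1.31 for Izumo1 and -0.57 to 0.67 for Akap3. At LZ they ran from -0.05 to 0.11 for Kcnu1, -0.60 to 1.12 for Akap3, -0.47 to 1.14 for Akap4 and -0.74 to 0.39 for Smcp. Kcnu1 ran from -0.94 to 1.24 at PD and from -0.97 to 1.21 in the interaction.

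Deviations of same-numbered libraries had correlations from -0.0651 to 0.194 between groups. With 2 libraries per group, these values cannot show whether same-numbered libraries came from the same animals, which the labels do not state. With a replicate block, 7 members were higher and 2 lower at PD, 2 were higher in WT and 9 in Cnot4-null, 0 were called at LZ and 6 in the interaction, and no call of a member changed. The deposited values carry no read counts, so the counting error of low values was not computed. Beyond the smaller number of genes or libraries, the cause was not tested for any of these shifts. Catsper1 and Kcnu1 had no value with a mean of at least 5 FPKM, and the interaction none with the compared libraries alone.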

Other observations

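The 2 Cnot4-null PD libraries differed from each other by gene. Among the members, replicate 1 exceeded replicate 2 by 10.1-fold for Kcnu1, 2.41-fold for Catsper2, 2.23-fold for Izumo1 and 1.15-fold for Catsper4, whereas for Smcp the ratio was 0.837. Of the round spermatid markers Tssk6, a kinase gene, was likewise lower in replicate 1, at 35.8 and 63.7 FPKM, while Prm1 was at 7592 and 2949.

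Slc25a31, the testis adenine nucleotide carrier of the flagellum, was the only companion gene called lower from LZ to PD in either genotype. It was at 228 and 289.7 FPKM (WT LZ), 283 and 246 (null LZ), 98.1 and 122 (WT PD) and 90.4 and 102 (null PD). Clu, the leading Sertoli marker, was at 55.9 and 47.4 FPKM in WT LZ and 4.56 and 6.88 in Cnot4-null LZ. Of 4 Sertoli genes tested at LZ, 0 were called by limma and 3 had an unadjusted p under 0.05, beside 1013 of 15899 genes.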
